A study of Mus musculus with 8 samples.

Results

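Monoamines are made, packaged and destroyed by a small set of proteins, and 9 mouse genes for these steps were followed in islet RNA: the synthesis enzymes Th, Ddc, Dbh, Tph1 and Tph2, the vesicular transporters Slc18a1 and Slc18a2, and the monoamine oxidases Maoa and Maob. They were chosen by symbol, with earlier results of these data known, so they are not an independent set. All 9 were among the 32531 gene symbols of the count table. Islets came from 4 control mice (RIP-Cre+, Rosa26-rtTA+, tetO_NICD-) and 4 β-tetO-NICD mice (RIP-Cre+, Rosa26-rtTA+, tetO_NICD+), all on a mixed background of C57BL/6J, 129X1/SvJ and BALB/c and all given doxycycline (Dox) in drinking water for 8 weeks. The study began Dox at weaning or in older animals, and the sources used here do not say which holds for the sequenced mice, so no age is given. In β-tetO-NICD mice Dox switches on the Notch1 intracellular domain (NICD), the active part of the Notch receptor, in cells where the insulin promoter has driven Cre. Controls carried the same Cre and rtTA and drank the same Dox, so by design the groups differ by the tetO_NICD transgene. The groups are called control and NICD here. Whole islets were sequenced, so NICD-expressing β cells and all other islet cells contributed RNA.

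Catecholamines are made from tyrosine. Th, tyrosine hydroxylase, makes L-DOPA in the step that limits the rate, Ddc, aromatic amino acid decarboxylase, turns L-DOPA into dopamine, and Dbh, dopamine β-hydroxylase, turns dopamine into noradrenaline. Serotonin is made from tryptophan by Tph1 or Tph2, tryptophan hydroxylases, and then by the same Ddc. Slc18a1 (VMAT1) and Slc18a2 (VMAT2) load the amines into secretory vesicles, and Maoa and Maob oxidize them at the mitochondrial outer membrane. Mouse β cells are known to take up amine precursors, to store dopamine and serotonin with insulin, and to induce Tph1 under prolactin in pregnancy. Sympathetic nerve endings in the islet also hold Th protein, but the cell bodies of those neurons lie outside the pancreas.

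Th, Tph1 and Maob were lower in NICD islets. Th fell 2.79-fold, Maob 2.83-fold and Tph1 5.6-fold. The Tph1 estimate, −2.49 on the log2 scale, was −1.86 without control 2, and its call was lost without NICD library 2 (adjusted p = 0.0665) and among the 5 libraries with at most 1 count of the Y-linked Eif2s3y (adjusted p = 0.0634), which leaves 2 members called in those fits. Ddc, the enzyme gene that both branches share, and Tph2, the other tryptophan hydroxylase gene, did not pass the test. Of the 8 members with enough counts to test, 3 were lower at an adjusted p under 0.05 and none was higher, where 2.57% of all 15082 tested genes were lower, 4.19% were higher and 6.76% changed in either direction. The share over all genes was unstable. With 1 library left out, 319 to 4954 genes were called, the most without NICD library 1 (of 14902 tested), where the members called were the same 3. The estimate was negative in 7 of the 8, with a median log2 fold change of −0.77 beside 0.00071 over all tested genes.

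The start regions of Th and Tph1, the synthesis genes that fell, are shown with that of the paralog Tph2, which did not pass the test. Each is the 250 bases before the RefSeq gene start on GRCm38.p6, read on the gene's own strand from 5′ to 3′, at chr7:142899996-142900245 for Th, chr7:46672538-46672787 for the outer start of Tph1 and chr10:115185023-115185272 for Tph2, all on the minus strand. Capitals mark every match, on either strand, to 3 of the motifs searched, the cyclic AMP response element TGACGTCA, the TATA box TATAAA and the core of the site bound by RBPJ, the DNA-binding partner of NICD, TGGGAA.
Th: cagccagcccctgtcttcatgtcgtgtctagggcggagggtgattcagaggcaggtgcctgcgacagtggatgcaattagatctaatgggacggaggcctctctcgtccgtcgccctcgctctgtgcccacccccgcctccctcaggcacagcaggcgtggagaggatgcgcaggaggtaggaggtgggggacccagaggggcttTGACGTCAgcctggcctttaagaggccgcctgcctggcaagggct
Tph1: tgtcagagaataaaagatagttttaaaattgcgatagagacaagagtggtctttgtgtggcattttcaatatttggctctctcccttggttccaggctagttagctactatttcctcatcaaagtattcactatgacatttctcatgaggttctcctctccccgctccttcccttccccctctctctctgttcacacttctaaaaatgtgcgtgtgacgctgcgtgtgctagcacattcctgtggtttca
Tph2: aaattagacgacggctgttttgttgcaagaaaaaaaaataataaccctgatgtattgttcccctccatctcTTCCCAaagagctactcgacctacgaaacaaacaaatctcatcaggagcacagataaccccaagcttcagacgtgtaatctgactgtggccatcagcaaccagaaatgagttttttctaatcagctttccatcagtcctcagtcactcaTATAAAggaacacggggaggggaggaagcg

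The Th region holds the full cyclic AMP response element, whose first base is 45 bases before the start, and 1.55% of the 32851 RefSeq start regions of this length hold that motif on either strand. It also holds an E box (CANNTG), the site class of basic helix-loop-helix factors, at 199 bases before the start, as do 66.2% of all such regions. Neither the outer start of Tph1 nor its inner start, at chr7:46667378-46667627, held any of the 5 motifs, the fifth being the N box CACNAG bound by Hes repressors, which 36.7% of all regions hold. The Tph2 region holds a TATA box beginning 30 bases before the start, a motif in 12.4% of regions, and an RBPJ core, read on the opposite strand, beginning 179 bases before it, a motif in 21.6%. A match describes the letters in these windows and no site in use. Of the 9 members, 7 had a start region in the RefSeq table, and Slc18a1 and Maob did not.

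Depth was similar between the groups, with 22430941 to 25950164 counts per control library and 21701223 to 26413146 per NICD library. A floor of 3 counts was at most 0.151 CPM (counts of each gene per 1e6 counts of the library), scaled here by edgeR's trimmed mean of M values (TMM). Notch1, which the transgene adds to, separated the groups as labelled, with 1051 to 1562 counts in controls and 11388 to 36628 in NICD libraries. Several libraries stood apart. Controls 1, 2 and 4 and NICD library 1 carried relatively more of long transcripts (Spearman's rho across genes of 0.43 to 0.51 between a library's deviation and transcript length), and the other 4 libraries carried less (−0.53 to −0.17). Counts of the Y-linked Eif2s3y were 1300 to 1527 in controls 2 and 4 and in the NICD library numbered 5, against 1 or fewer elsewhere. The study's methods state male mice for gene expression, which these counts do not match in 5 libraries, and the libraries with Eif2s3y are 2 of 4 controls and 1 of 4 NICD libraries. The part of sex in the results was not tested beyond the fits that leave out or adjust for libraries with Eif2s3y. The insulin genes took 14.95% to 17.3% of counts in controls and 6.16% to 13.9% in NICD libraries, and glucagon, the product of α cells, 1.09% to 4.005% and 5.75% to 6.48%. In bulk islets, fewer cells of a type and less RNA per cell cannot be told apart. On sections of this model, the paper found the ratio of β to α cells unchanged. It also saw no evidence, by lineage tracing, of β cells turning into α cells. The controls for that ratio lacked Cre, unlike the controls sequenced here. Cell numbers in the sequenced islets are not given in the sources used here. The NICD columns are numbered 1, 2, 4 and 5, and the mice are separate animals by their labels.

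Th varied little among controls. Its counts were 931, 1002, 1056 and 999 in controls 1 to 4, and 293, 434, 381 and 289 in NICD libraries 1, 2, 4 and 5. The groups did not overlap, and all controls lay within a narrow band far above the highest NICD library. Counting error alone gives the 999 counts of control 4 an exact Poisson 95% interval of 938 to 1063. The closeness of the controls is therefore not a measure of how alike the mice are. Scaled for depth, Th averaged 41.9 ± 1.01 CPM among controls against 15.02 ± 2.74 CPM among NICD islets (SD, n = 4 each). The log2 fold change was −1.48 (standard error 0.15, 95% interval −1.82 to −1.14, adjusted p = 0.000681 by the edgeR quasi-likelihood F test, adjusted after Benjamini and Hochberg over all tested genes). Th lies on chromosome 7 of GRCm38 from 142892752 to 142931128 on the minus strand, with 6 annotated transcripts and no 31-base word shared with another gene's transcripts. The start region printed above lies inside this annotated span and overlaps an annotated Th exon, so it is not upstream of every Th transcript. The change was −1.74 once the length trend of each library was taken out, and −1.48 among the 5 libraries with at most 1 Eif2s3y count (adjusted p = 0.0443).

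**Figure D1:**
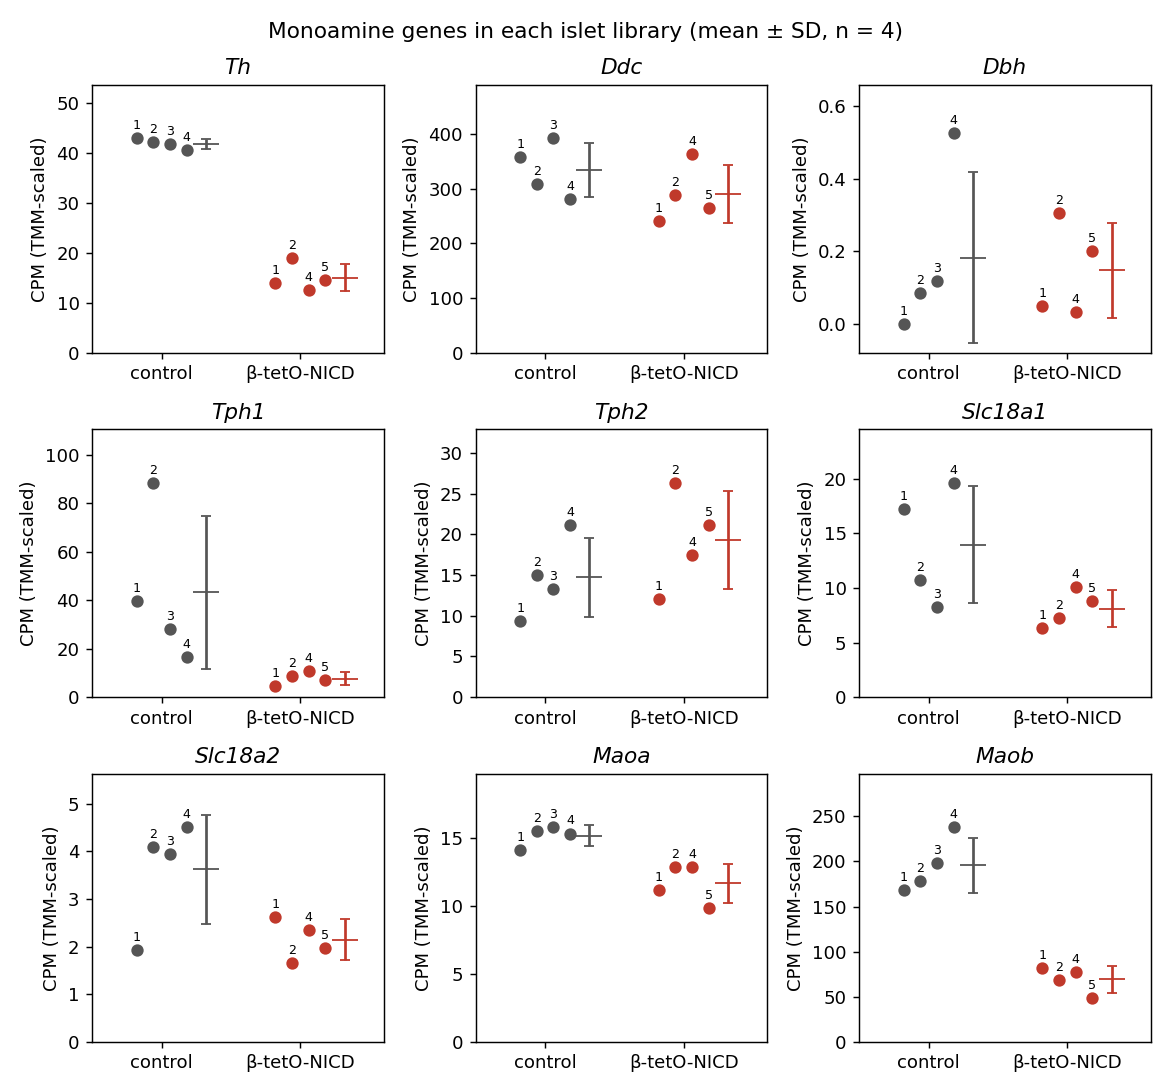
TMM-scaled CPM of the 9 monoamine genes in each library, with controls in grey and NICD in red, library numbers above the points, and the mean ± SD (n = 4) beside them. Th, Tph1, Maoa and Maob show no overlap between groups, with Th at 40.5 to 42.9 CPM in controls and 12.6 to 19.0 CPM in NICD islets.

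Sympathetic neurons are another known source of Th, so their genes were read beside it. Their cell bodies lie outside the pancreas, so the level of these genes in islet RNA says little about the amount of nerve fibers. By staining, the paper found a smaller Th-positive area in islets of this model, which it reads as a depletion of sympathetic fibers. The part of such a loss in the Th RNA result was not tested. Dbh, which noradrenergic neurons need, had 0, 2, 3 and 13 counts in controls and 1, 7, 1 and 4 in NICD libraries. It was at or under the floor of 3 counts in 5 of the 8 libraries, reached 10 counts in 1 library and was not tested. With no filter on low counts its log2 fold change was −0.36, with a 95% interval of −2.50 to 1.77 (adjusted p = 0.8293 from edgeR's test), so a change of several fold in either direction was not detectable at this depth. Slc6a2, the noradrenaline transporter of the same neurons, had at most 5 counts in any library. Of the 8 sympathetic neuron markers, 7 were tested and none passed (1 at an unadjusted p under 0.05, against 4769 of all 15082 tested genes), and their summed level was 67.1 to 171 CPM in controls and 84.7 to 113 CPM in NICD islets. Of the 6 genes listed as Schwann cell markers, the glia of peripheral nerves, 1 was lower. It was Gfra3, a receptor subunit for the neurotrophic factor artemin, at 43.6 ± 23.9 CPM in controls and 10.8 ± 4.04 CPM in NICD islets (SD, n = 4 each, log2 fold change −2.01, adjusted p = 0.0223 from edgeR's test). The list summed to 53.5 to 106 CPM in controls and 32.9 to 42.5 CPM in NICD islets, without overlap, and Gfra3 made up most of that difference. Of the 6, 5 had negative estimates and 2 were at an unadjusted p under 0.05. Cdh19, a cadherin of the lineage, had a log2 fold change of −1.15 and no overlap between groups but did not pass (adjusted p = 0.0727), and Sox10 and S100b were at −0.31 and −0.073 (adjusted p = 0.487 and 0.857). The part of glial RNA in the Th result was not tested.

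Ddc, which decarboxylates both L-DOPA and the serotonin precursor, had the highest level per length of all members. It had 7764, 7290, 9899 and 6921 counts in controls and 5061, 6614, 10951 and 5267 in NICD libraries 1, 2, 4 and 5. The groups overlapped widely, and the single highest count was in a NICD library. Its level was 335 ± 49.7 CPM in controls and 290 ± 53.2 CPM in NICD islets (SD, n = 4 each). The log2 fold change was −0.21, with a 95% interval of −0.61 to 0.20 (adjusted p = 0.435 from edgeR's test), an interval that leaves out a fall as large as the estimates for Th, Tph1 and Maob. With the length trend of each library taken out, the Ddc estimate was −0.43 and did not pass (adjusted p = 0.0983). Ddc lies on chromosome 11 from 11814101 to 11898144, minus strand, and overlaps the antisense gene 1700042O10Rik. The libraries were stranded, but whether strand was used in counting is not given in the sources used here.

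Of the tryptophan hydroxylases, Tph1, the form known from peripheral tissues and from islets of pregnancy, had the largest estimate of the members. Its counts were 861, 2093, 708 and 413 in controls and 94, 196, 324 and 138 in NICD libraries 1, 2, 4 and 5. Controls were widely spread, control 2 highest and control 4 lowest, yet the lowest control stayed above the highest NICD library. The lowest count, 94, has an exact Poisson 95% interval of 76.0 to 115, which covers counting error only. Mean levels were 43.2 ± 31.5 CPM in controls and 7.68 ± 2.65 CPM in NICD islets (SD, n = 4 each). The log2 fold change was −2.49 (standard error 0.49, 95% interval −3.58 to −1.40, adjusted p = 0.0179 from edgeR's test).

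The Tph1 call was the least secure of the 3. Without control 2 the log2 fold change was −1.86 (adjusted p = 0.0291). Control 2 also held the most fibroblast and stellate cell RNA, with 2090 Col1a1 counts against 253 to 868 in the other controls, and its part in the Tph1 level was not tested. Without NICD library 2 the estimate was −2.54 but the adjusted p was 0.0665, and among the 5 libraries with at most 1 Eif2s3y count it was −2.09 with an adjusted p of 0.0634. Tph1 lies on chromosome 7 from 46644641 to 46672537 on the minus strand.

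Tph2, the form known from serotonin neurons, was the only tested member with a positive estimate. It had 204, 357, 335 and 521 counts in controls and 254, 603, 525 and 421 in NICD libraries. The groups overlapped, with control 4 above NICD libraries 1 and 5 in counts. Levels were 14.7 ± 4.89 CPM in controls and 19.3 ± 6.02 CPM in NICD islets (SD, n = 4 each), a log2 fold change of 0.39 with a 95% interval of −0.26 to 1.03 (adjusted p = 0.361 from edgeR's test). Tph2 lies on chromosome 10 from 115078641 to 115185022 and shares no 31-base word with another gene, Tph1 included.

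A ratio of counts within a library does not depend on depth or on a factor that scales the whole library. It does depend on the library's length trend where the 2 transcripts differ in length, which dividing by length does not remove. The longest transcripts of Tph1 and Tph2 are 4562 and 2626 bases. With the length trend taken out, their log2 fold changes were −2.28 and 0.25. The ratio of Tph1 to Tph2 counts was 4.22, 5.86, 2.11 and 0.793 in controls 1 to 4, and 0.370, 0.325, 0.617 and 0.328 in NICD libraries 1, 2, 4 and 5. Scaled by the length of the longest annotated transcript, Tph1 was above Tph2 in 3 of the 4 controls and below it in all 4 NICD libraries, at ratios of 0.456 to 3.37 and 0.187 to 0.355. The ratio of Ddc to Th counts was 6.93 to 9.37 in controls and 15.2 to 28.7 in NICD libraries. The ratio of Slc18a1 to Slc18a2 counts overlapped between groups, at 2.08 to 8.90 in controls and 2.42 to 4.46 in NICD libraries. These ratios restate the counts above and were not tested.

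**Figure D2:**
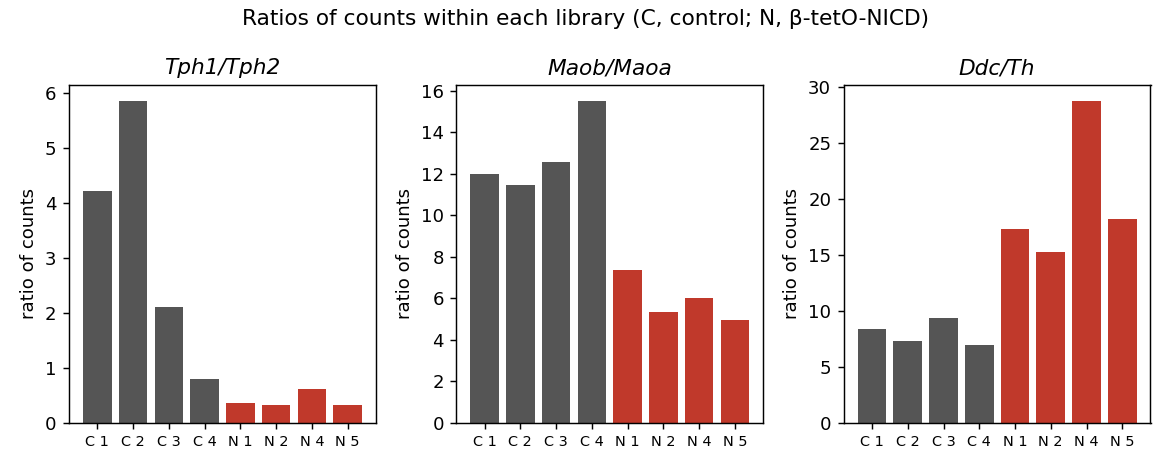
Ratio of counts of Tph1 to Tph2, Maob to Maoa and Ddc to Th within each library, as bars from 0, with controls (C) in grey and NICD (N) in red. The groups do not overlap in these 3 of the 4 ratios computed (the one not drawn, Slc18a1 to Slc18a2, overlaps), with Tph1/Tph2 at 0.793 or more in controls and 0.617 or less in NICD islets.

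The vesicular transporter genes both had negative estimates that did not pass. Slc18a1, known from neuroendocrine cells, had 374, 254, 208 and 483 counts in controls and 133, 166, 304 and 174 in NICD libraries. In CPM, control 3 lay inside the NICD range and control 2 just above it. Its level was 13.95 ± 5.35 CPM in controls and 8.11 ± 1.66 CPM in NICD islets (SD, n = 4 each), a log2 fold change of −0.78 (95% interval −1.42 to −0.14, adjusted p = 0.112 from edgeR's test). Slc18a2, used in imaging as a marker of human β cells, was lower than Slc18a1 per length in every library, and had 42, 97, 100 and 111 counts in controls and 55, 38, 71 and 39 in NICD libraries. Control 1 alone lay within the NICD range. The level was 3.62 ± 1.15 CPM in controls and 2.15 ± 0.421 CPM in NICD islets (SD, n = 4 each), a log2 fold change of −0.75 (95% interval −1.43 to −0.074, adjusted p = 0.133). Without control 3 and NICD library 1, whose length trends run against those of their groups, Slc18a1 had an adjusted p of 0.0273 at a log2 fold change of −0.86. Slc18a1 overlaps Atp6v1b2 and Gm15716 on the opposite strand, and Slc18a2 overlaps Gm29261, with which it shares 81 of its 5366 31-base words (1.51%).

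The oxidases differed in level and in change. Maob had 3659, 4220, 5006 and 5857 counts in controls and 1724, 1568, 2322 and 968 in NICD libraries 1, 2, 4 and 5. Every control was above every NICD library. It fell from 196 ± 30.6 CPM to 69.1 ± 14.6 CPM (SD, n = 4 each), a log2 fold change of −1.50 (standard error 0.20, 95% interval −1.94 to −1.07, adjusted p = 0.00279 from edgeR's test). With each library left out in turn the estimate stayed between −1.59 and −1.36 and passed in all 8 fits.

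Maoa had 306, 368, 399 and 378 counts in controls and 235, 294, 387 and 196 in NICD libraries, or 15.2 ± 0.745 CPM and 11.7 ± 1.44 CPM (SD, n = 4 each). In CPM the groups did not overlap, but the log2 fold change of −0.38 (95% interval −0.71 to −0.050) did not pass (adjusted p = 0.124 from edgeR's test). Among all tested genes, 16.1% had no overlap between groups, made up of 7.92% that were lower and 8.22% that were higher in NICD islets. Of the 8 tested members, 4 had none, all of them lower. The Maob to Maoa ratio of counts was 11.5 to 15.5 in controls and 4.94 to 7.34 in NICD libraries. The 2 genes are neighbors on chromosome X, Maoa from 16619698 to 16687818 on the plus strand and Maob from 16709282 to 16817366 on the minus strand. Their transcripts share 5 words of 31 bases, out of 2840 for Maob, while 6.91% of the words of Maoa occur in transcripts of other genes, so its counts are the less certain. Both genes are X-linked, and the log2 fold change of Maob was −1.27 (adjusted p = 0.0436) among the 5 libraries with at most 1 Eif2s3y count.

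**Figure D3:**
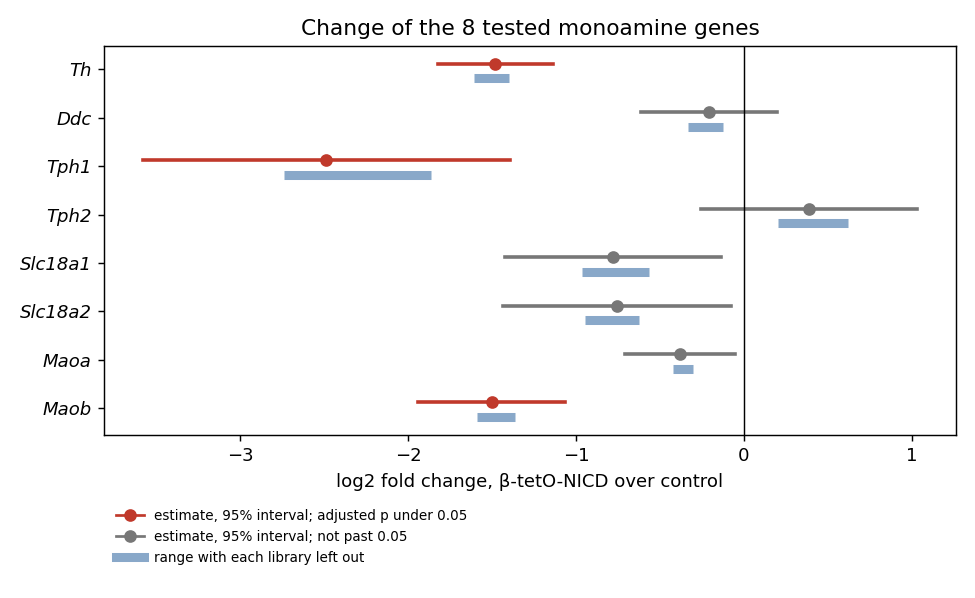
Log2 fold change (NICD over control) of the 8 tested members with 95% intervals, red where the adjusted p was under 0.05, and below each the range of estimates with each library left out in turn. Th, Tph1 and Maob are past the threshold, and the interval of Tph1, from −3.58 to −1.40, is the widest.

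Per length, as CPM per kilobase of the longest annotated transcript, the members covered more than 3 orders of magnitude. Ddc came first, at 166 ± 24.6 in controls and 143 ± 26.3 in NICD islets (SD, n = 4 each). Maob followed at 81.2 ± 12.7 and 28.6 ± 6.07, and Th at 21.5 ± 0.520 and 7.70 ± 1.40. This order of 3 held in each of the 8 libraries. The means of Tph1, Tph2, Slc18a1 and Maoa in controls were 9.47, 5.61, 4.48 and 3.65, and their ranges over control libraries overlapped, so their order was not settled. In NICD islets Tph2 came next, at 7.33 ± 2.29, overlapping the range of Th and above Maoa at 2.80 ± 0.346, Slc18a1 at 2.60 ± 0.534 and Tph1 at 1.68 ± 0.581, of which Maoa and Slc18a1 overlapped, as did Slc18a1 and Tph1. Slc18a2, at 0.825 ± 0.261 and 0.489 ± 0.0959, and Dbh, at 0.0716 ± 0.0922 and 0.0576 ± 0.0511, came last.

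**Figure D4:**
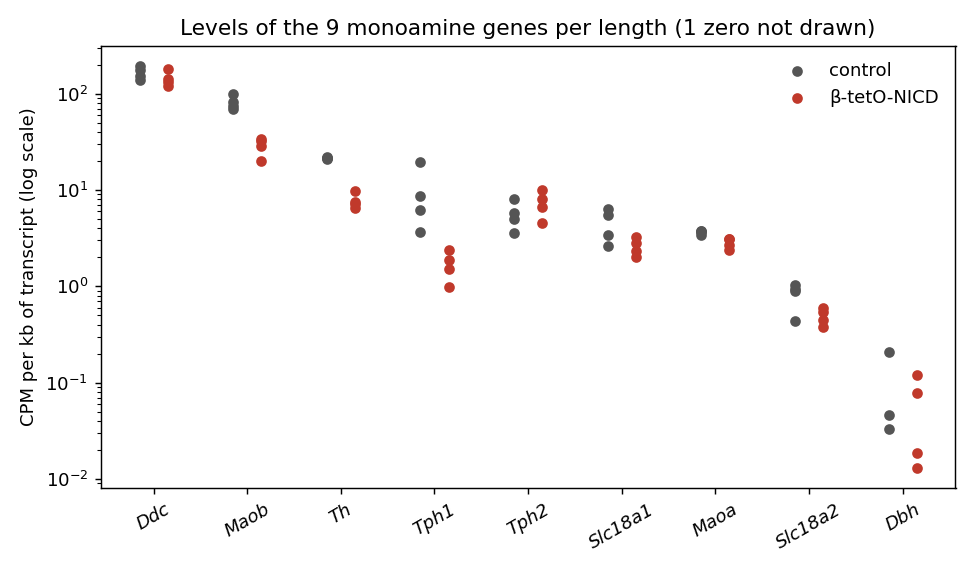
CPM per kilobase of the longest annotated transcript on a log axis, 1 point per library, genes ordered by the control mean, controls in grey and NICD in red. Ddc, Maob and Th keep their order in both groups, whereas Tph1 drops from 9.47 to 1.68 and lies below Tph2 in NICD islets.

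Genes around these steps were read from lists of related genes. The 8 genes that supply tetrahydrobiopterin, the cofactor of Th, Tph1 and Tph2, were all tested and none passed in either direction, with 3 at an unadjusted p under 0.05, as were 4769 of all 15082 tested genes. The estimate was negative in 1 of the 8, and the median log2 fold change was 0.45. The 3 were Spr, Pcbd1 and Pcbd2, enzymes of cofactor synthesis and recycling, with estimates of 0.66, 0.61 and 0.79 (adjusted p = 0.0795, 0.0736 and 0.142). Gch1, the one with a negative estimate, which encodes the first enzyme of cofactor synthesis and had the highest mean count of them, was at 146 CPM in controls and 121 CPM in NICD islets (log2 fold change −0.27, adjusted p = 0.256). Among 6 other genes of amine synthesis, 3 were tested and 1 was higher, the Dbh relative Moxd1, at 1.06 ± 0.336 CPM in controls and 5.03 ± 3.62 CPM in NICD islets (SD, n = 4 each, log2 fold change 2.24, adjusted p = 0.0267). NICD library 2 had 237 Moxd1 counts against 68 to 78 in the other NICD libraries and 18 to 34 in controls, so the size of the rise rests in large part on that library. Pnmt, which makes adrenaline, had at most 3 counts in any library.

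Of 11 uptake genes, 6 were tested and 1 was higher. Slc29a4, the plasma membrane monoamine transporter, had 593 to 811 counts in controls and 1371 to 2196 in NICD libraries, with 29.3 ± 5.73 CPM and 69.9 ± 5.27 CPM (SD, n = 4 each). It rose by 1.26 on the log2 scale, with a standard error of 0.16 (adjusted p = 0.00248, edgeR). The dopamine transporter gene Slc6a3 had no counts in any library, and the serotonin transporter gene Slc6a4 had 4 to 26. Slc3a2, the heavy chain of amino acid transporters that carry tyrosine and tryptophan, had the highest mean count, at 198 CPM and 213 CPM (adjusted p = 0.663).

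Of 10 further genes of amine breakdown, all tested, 1 was lower and none higher. Hnmt, histamine N-methyltransferase, fell from 5.61 ± 0.358 CPM to 3.10 ± 0.517 CPM (SD, n = 4 each, log2 fold change −0.86, adjusted p = 0.0358 from edgeR's test). Akr1a1, an aldehyde reductase and the gene of highest mean count, was at 275 CPM and 364 CPM (adjusted p = 0.188).

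Receptor genes for these amines were mostly near the floor. Of 14 serotonin receptor genes 2 were tested, Htr3a and Htr3b, subunits of the ion channel receptor, and neither passed, nor was either at an unadjusted p under 0.05. Htr3a, of the higher mean count, had 51 to 331 counts in controls and 75 to 217 in NICD libraries. Drd1, the only tested dopamine receptor gene of 5, had 2 to 6 counts in controls and 13 to 22 in NICD libraries (log2 fold change 2.37, adjusted p = 0.0193 from edgeR's test), a rise at very low level. It met the count minimum only through the NICD libraries, so its call rests on that filter. Of 9 adrenergic receptor genes 4 were tested and Adrb1 was higher, from 3 to 14 counts to 26 to 38 (log2 fold change 1.96, adjusted p = 0.0287). Adrb1 too reached the minimum in all NICD libraries but not in all controls. Adra2a, the α2 receptor through which adrenaline restrains insulin release, had the highest mean count, at 65.2 ± 16.9 CPM and 104.8 ± 13.1 CPM (SD, n = 4 each), a log2 fold change of 0.69 with an adjusted p of 0.0605, which did not pass.

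Prolactin and growth hormone receptors signal through Jak2 and Stat5 and are the known inducers of islet Tph1. All 7 genes of this list had negative estimates, with a median log2 fold change of −0.40, and 1 passed. Ghr, the growth hormone receptor gene, fell from 180 ± 19.6 CPM to 104 ± 17.8 CPM (SD, n = 4 each, log2 fold change −0.80, adjusted p = 0.0199 from edgeR's test). Prlr, the prolactin receptor gene and the one of highest mean count, had 6134, 5488, 2790 and 7194 counts in controls and 2659, 2325, 3813 and 2384 in NICD libraries. Control 3 lay within the NICD range, and the log2 fold change of −0.95 did not pass (adjusted p = 0.0644). The Stat5 targets Cish and Socs2 had log2 fold changes of −0.40 and −0.42 and did not pass.

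**Figure D5:**
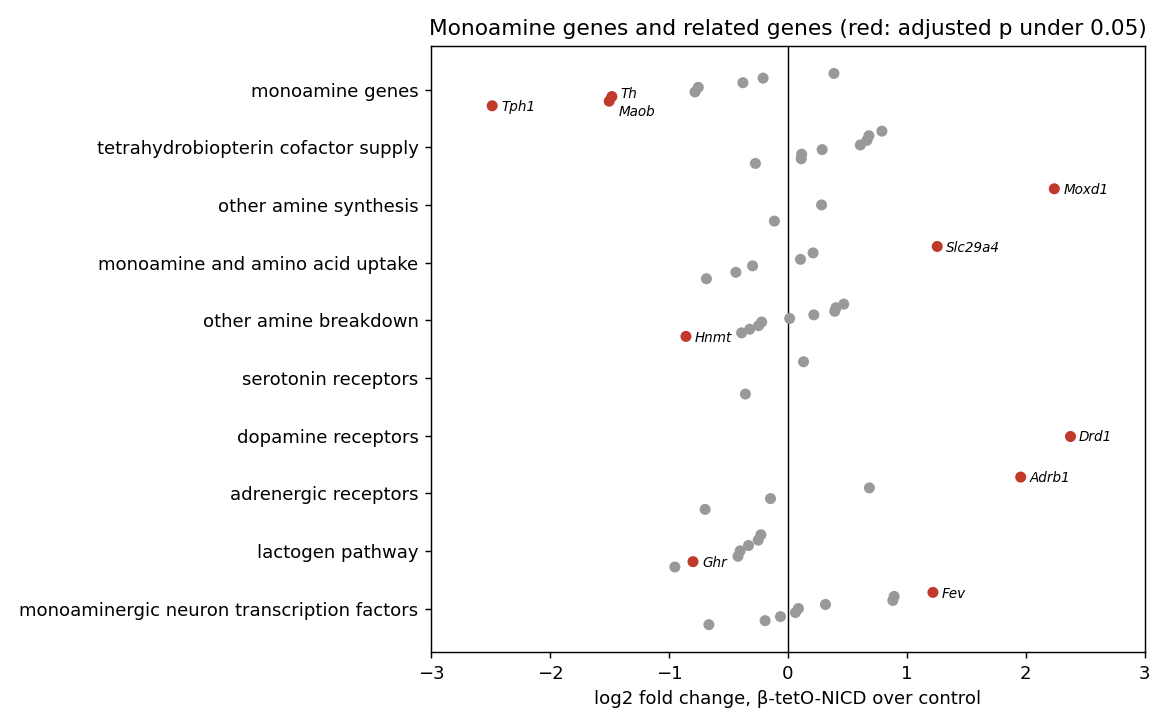
Log2 fold changes (NICD over control) of all tested genes of the monoamine set and of 9 lists of related genes, 1 point per gene, red and named where the adjusted p was under 0.05. Th, Tph1 and Maob lie left of 0 with Hnmt and Ghr, and Moxd1, Slc29a4, Drd1, Adrb1 and Fev lie right of it.

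Markers of the cells that could supply these transcripts also moved. Of 10 β cell markers, 3 were lower and none higher, namely Slc2a2, Ucn3 and G6pc2. The estimate was negative in 8 of the 10, with a median log2 fold change of −0.69, beside −0.77 for the monoamine genes. The insulin genes Ins1 and Ins2 were at −0.65 and −0.56 and did not pass (adjusted p = 0.213 and 0.295), and Pdx1 and Nkx6-1 were the 2 with positive estimates, at 0.043 and 0.039 (adjusted p = 0.901 and 0.912). The β cell list summed to 157170 to 197770 CPM in controls and 72403 to 172160 CPM in NICD libraries. Of 7 α cell markers 4 were higher, Irx1, Irx2 and Gc among them, and the list summed to 12137 to 43263 CPM and 55923 to 70982 CPM. Of 4 δ and PP cell markers 1, Hhex, was higher. None of the 20 acinar, 6 duct, 6 endothelial or 6 fibroblast and stellate cell markers passed, with 1, 2, 3 and 0 at an unadjusted p under 0.05. Over all genes, 4769 of the 15082 tested were under that value. Of 8 macrophage markers 1, C1qa, was higher. Mast cells, which hold serotonin and express Tph1, had 7 of 8 markers under the count minimum, the remaining one, Kit, did not pass, and the mast cell protease genes Tpsab1 and Cma1 had no counts. The part of these shifts in the monoamine results was not tested.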

How the data were processed

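The 9 genes, the lists of related genes and the cell markers were chosen with earlier results of these data known. From stranded poly(A) libraries, the authors pseudoaligned reads to the GRCm38 transcriptome with Kallisto and deposited whole-number counts per gene symbol, not normalized. How counts were made whole is not given in the sources used here. The authors' deposited table of their limma comparison (fold changes, mean expression, p values and related scores) was not used. Columns were matched by name. Those numbered 4 and 5 of the β-tetO-NICD group match no single labelled mouse. No pair of libraries in a group agreed within sampling noise (chi-square of at least 31.5 per gene).

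A gene was tested if it reached 10 counts in 4 or more of the 8 libraries, in R 4.3.3 with edgeR 4.0.16 (TMM, quasi-likelihood test, no covariate), with Benjamini-Hochberg adjustment over all 15082 genes and a threshold of 0.05. Adjusted p values are from this test. P values weigh the group difference against the variation among libraries of a group, as edgeR estimates it with information shared over genes. That variation holds differences between mice, counting error and the library differences described above. Standard errors are the log2 fold change over the root of F. The fits were first tested on simulated data. Loci, lengths and 31-base words come from GENCODE M21 (GRCm38) and start regions from RefSeq (GRCm38.p6). Named were all members, each related gene past the threshold and the gene of highest mean count in each list, and the 3 genes most alike to each called member. Other genes were named after their values were seen, and some genes that this rule names are not reported here. Alternatives were DESeq2 1.42.0, limma-voom (limma 3.58.1), other normalizations and filters, covariates, a length offset, a replicate block, and leaving out libraries. Depth per library is given with the results. Counting error adds to the spread between mice and is largest, relative to the level, for genes of few counts.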

Additional observations from a re-analysis of the deposited data

How the results depend on the processing

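Th and Maob kept their direction and an adjusted p under 0.05 in each of 13 other settings and the 8 fits with 1 library left out, with log2 fold changes of −1.74 to −1.40 and −1.64 to −1.27. Tph1 kept its direction, from −2.74 to −1.86, and lost the threshold among the 5 libraries with at most 1 Eif2s3y count (−2.09, adjusted p = 0.0634) and without NICD library 2 (−2.54, adjusted p = 0.0665). The members called were 2 to 3 with each library left out, 2 among those 5 libraries, 4 without control 3 and NICD library 1 (a choice made with the data known), and 3 otherwise. Over all genes, 1020 were called, but 2739 with DESeq2, 3441 with an acinar score as covariate, 1556 with the length offset, 122 among those 5 libraries, 5930 without control 3 and NICD library 1, and 319 to 4954 with 1 library left out, the most without NICD library 1. Leaving out control 1, 2 or 4 gave 496, 503 or 430, and leaving out NICD library 2, 4 or 5 gave 319, 374 or 603. The cause was not tested. The replicate numbers 1 and 2 are the only ones shared by columns of known mice (residual correlation 0.31 and −0.12). A fit with them as a block called 970 genes and the same 3 members. No scaling moved the median over all genes by more than 0.08.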

Other observations

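Transcription factors of monoaminergic neurons were measured in the same libraries. Of 13, 9 were tested, and 1 passed. Fev, a factor of serotonin neurons that is also known from developing islet cells, rose from 129 to 206 counts in controls to 252 to 443 in NICD libraries, or 6.52 ± 1.23 CPM to 15.2 ± 2.57 CPM (SD, n = 4 each, log2 fold change 1.22, adjusted p = 0.00705 from edgeR's test). Insm1, of the highest mean count, was at 82.0 CPM and 71.8 CPM (adjusted p = 0.451).

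The genes whose log2(CPM + 0.5) over the 8 libraries was most like each lowered member are given as a description, since the shared group difference alone gives a high correlation. For Th they were Synpr, B3galt1 and Prss53 (Pearson's r of 0.988, 0.982 and 0.977). For Tph1 they included Slc29a1 and Krtap13-1 (0.970 and 0.940), of which Slc29a1 did not pass the test between groups. For Maob they were Pitrm1, Shc1 and Xrcc3 (0.997, 0.989 and 0.988).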
